A study of Drosophila melanogaster with 73 samples.

Results

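The guts of adult female Drosophila melanogaster in which AopACT, an always-active version of the ETS-domain repressor Aop, was induced were compared with guts of the same genotype without induction. The comparison was chosen by the sample labels and holds 5 of the 36 gut libraries analysed (73 libraries are labelled in the whole series), 3 of them uninduced and 2 induced. All flies, uninduced ones included, carried the S106 GeneSwitch driver, which acts in gut and fat body once the steroid RU486 is fed, together with a UAS transgene for AopACT. Females were mated for 48 h, separated from males and kept for 6 days on food with 200 µM RU486 (induced) or without it (uninduced). Each library came from poly(A) RNA of a pool of 12 guts dissected free of Malpighian tubules. The other 6 genotypes carried transgenes for Foxo, PntP1, or combinations of these with each other and with AopACT on the same driver. Flies with the driver and no transgene, fed RU486, are not among the libraries analysed here, so within a single genotype the effects of the steroid and of the transgene cannot be told apart.

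Aop, also known as Yan, sits at the end of the EGFR, Ras and MAPK pathway and binds the same ETS sites as the activator Pnt, which it keeps from switching its targets on. In the adult midgut, absorptive enterocytes secrete proteases, lipases, glucosidases and lysozymes and take up the products, and stem cells and hormone-secreting enteroendocrine cells lie among them. Foxo is the forkhead factor that becomes active when insulin signalling is low.

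Total counts were between 2352507 and 2980733 in the 5 libraries, and mitochondrially encoded transcripts held between 4.39% and 8.29% of counts. The summed level of 6 enterocyte markers, 6 of 6 tested, was between 1709 and 2185 CPM (counts scaled to a common library size of 1e+06) in the uninduced and 1719 and 1743 CPM in the induced libraries. The 2 induced libraries differed from each other more than the uninduced ones did. Of 9270 genes tested, 16.6% were over 2-fold apart between the induced libraries, against 7.7% to 11.5% between pairs of uninduced libraries. Induced replicate 2 also held eggshell transcripts. The summed level of the 25 measured ovary and follicle cell markers, of which 24 were tested, was 102, 272 and 12.1 CPM in the uninduced libraries, 64.2 CPM in induced replicate 1 and 1271 CPM in induced replicate 2, the second highest of all gut libraries. The vitelline membrane genes Vm34Ca (421 CPM) and Vm26Ab (403 CPM) led it there, and none of the 24 markers passed the test. The part of these transcripts in the results was not tested. The libraries were pools of tissue, in which fewer cells of a type and less RNA per cell cannot be told apart. The p-values rest on the spread between pools, estimated over all 36 gut libraries and not from these 5 alone.

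The driven factor was examined first. The mRNA of aop (chromosome 2L from 2156484 to 2178754) was at 36.8, 45.4 and 42.5 CPM in the uninduced libraries, replicates 1 to 3, and at 99.4 and 94.9 CPM in the induced libraries, replicates 1 and 2. Every induced library lay above every uninduced one, a separation that 15.5% of all genes tested showed, and the fitted rise was 2.16-fold. The log2 fold change of 1.11 ± 0.37 (SE) did not pass the test across all genes (edgeR adjusted p = 0.559). In genotypes without AopACT, aop had log2 fold changes of 1.17 (PntP1), 2.02 (Foxo+PntP1, called) and 0.29 (Foxo). In the others with AopACT they were 2.32 (Foxo+AopACT, called), 1.49 (all 3 transgenes, called) and 0.16 (AopACT+PntP1). The part of the transgene in the rise of aop was not tested. The mRNA of pnt, the opposing activator, was at 36.0, 40.0 and 44.0 CPM without and 37.0 and 37.3 CPM with induction (log2 fold change -0.13 ± 0.51). The mRNA of foxo was at 56.9, 68.6 and 50.7 CPM without and 54.0 and 51.1 CPM with induction (log2 fold change -0.31 ± 0.34). Beside aop, the other 6 tested ETS genes had no call, and sty, a feedback inhibitor of receptor tyrosine kinase signalling, had the lowest p of the 26 tested genes of the EGFR and Ras/MAPK pathway. It was at 18.0, 23.9 and 24.6 CPM in the uninduced and 13.3 and 11.6 CPM in the induced libraries, without a call (log2 fold change -0.88 ± 0.42, edgeR adjusted p = 1).

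Induction of AopACT changed 27 of 9270 genes (0.291%) at an adjusted p under 0.1, of which 13 rose and 14 fell, and 372 genes (4.01%) had an unadjusted p under 0.05. The median log2 fold change of all genes tested was 0.03. The called genes changed by at least 2.09-fold. They included the glucosidase gene tobi and the odorant-binding protein gene Obp99b among those that rose, and digestive enzymes, a lysozyme and membrane transporters among those that fell. In none of the 27 did an induced library overlap an uninduced one, a separation that 15.5% of all genes tested showed. Within block C (uninduced replicate 2 against induced replicate 1) and within block D (uninduced replicate 3 against induced replicate 2), 27 of 27 kept the direction of the fit. That follows from the lack of overlap in the same libraries and is no separate result. The count rested on few libraries: 3 genes were called without induced replicate 2 (CG4835, CG6283 and CG14204), 8 without uninduced replicate 3 and 15 without uninduced replicate 2, while DESeq2 called 56.

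**Figure D1:**
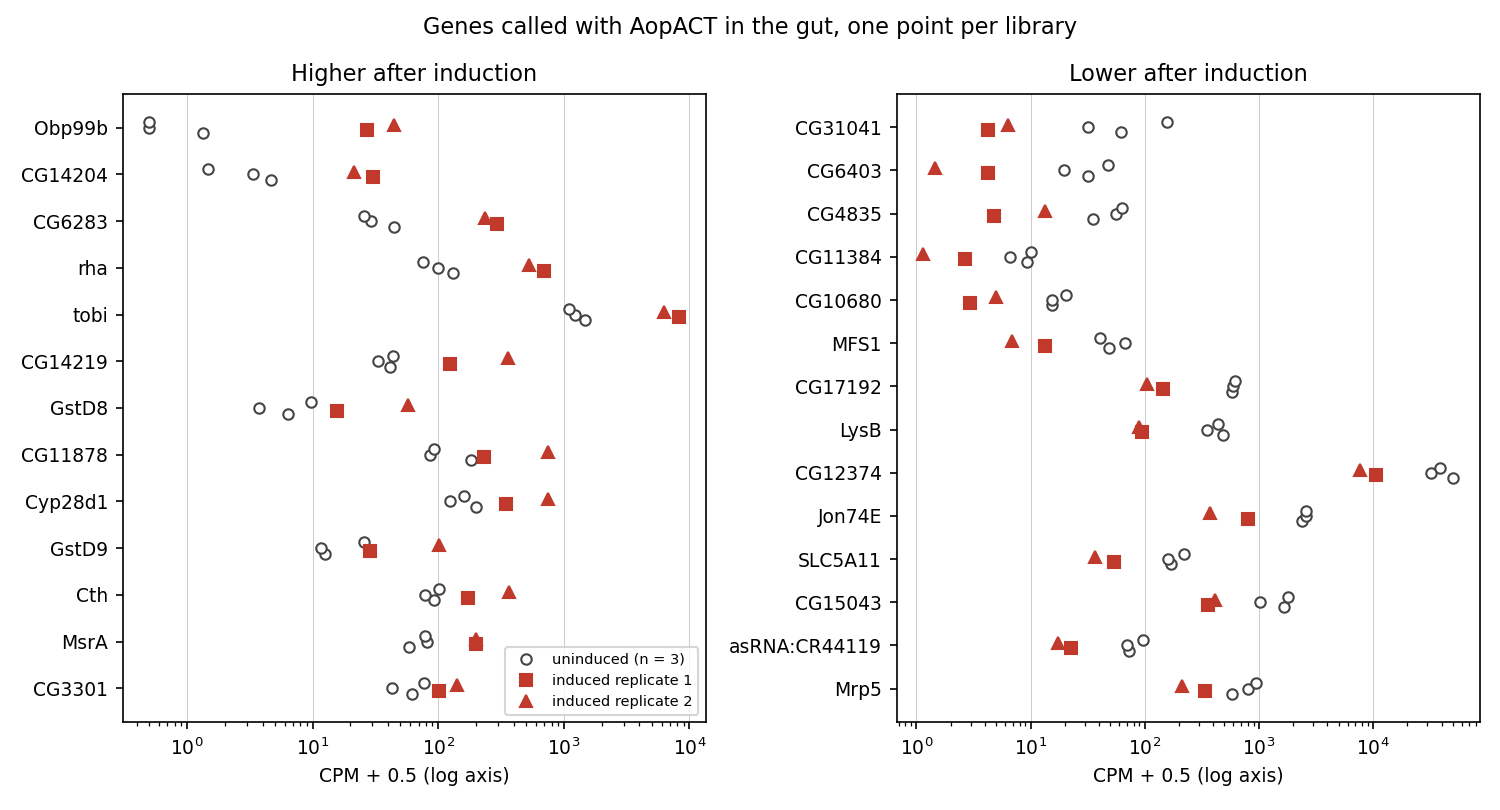
Level of each of the 27 called genes in CPM plus 0.5 on a log axis, with 1 point per library: open circles are the 3 uninduced libraries, red squares induced replicate 1 and red triangles induced replicate 2. No induced point overlaps an uninduced one, and GstD8, GstD9, CG11878 and CG14219 lie far apart between the 2 induced libraries.

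The most abundant gene that rose was tobi (chromosome 3R from 25344761 to 25346921), an alpha-glucosidase gene known as a target of insulin signalling. It was at 1473, 1236 and 1100 CPM in the uninduced libraries and at 8298 and 6320 CPM in the induced libraries. Both induced libraries were far above the uninduced range, a 7.07-fold rise (log2 fold change 2.82 ± 0.60, edgeR adjusted p = 0.0351). It was called in 8 of 14 alternatives (adjusted p from 0.00113 to 0.366, and 0.331 without the replicate block), with log2 fold changes of at least 2.53. Its neighbour rha (3R from 25340252 to 25344838), on the other strand, overlaps it by 78 bases and was at 132, 99.7 and 75.8 CPM without and 700 and 529 CPM with induction. This gene rose by 7.47-fold (log2 fold change 2.90 ± 0.55, edgeR adjusted p = 0.0163). The count of rha was between 6.90% and 8.94% of that of tobi in all 5 libraries, so their levels moved in proportion, and whether reads of one were counted for the other was not tested.

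Of the other 13 tested genes of maltases, amylases and glucosidases, none was called. Mal-A7, a maltase gene, was at 258, 269 and 156 CPM in the uninduced and 86.7 and 44.1 CPM in the induced libraries (log2 fold change -1.61 ± 0.51, edgeR adjusted p = 0.440). Its neighbour Mal-A8 was at 352, 290 and 180 CPM without and 113 and 110 CPM with induction (log2 fold change -1.05 ± 0.37, adjusted p = 0.674). In both maltases the induced libraries lay below all uninduced ones, opposite to tobi. The median log2 fold change of the 14 tested genes was -0.17, against 0.03 over all genes.

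The largest log2 fold change belonged to Obp99b (3R from 29716254 to 29716896), an odorant-binding protein gene. It had 2, 0 and 0 counts in the uninduced libraries (0.836, 0 and 0 CPM) and reached 26.9 and 43.7 CPM in the induced libraries. Pooled over the group, 2 of 7656015 uninduced and 223 of 5894125 induced counts gave a ratio of 145, with an exact 95% interval from 39.6 to 1203 that covers counting error only. In induced fat bodies Obp99b was at 997 and 2252 CPM, and the part of any fat body tissue in the gut values was not tested. The gene passed the test (edgeR adjusted p = 0.0247), and its fitted log2 fold change of 6.32 ± 1.21 depends on the prior count. DESeq2 did not call it, and it was called in 10 of 14 alternatives (adjusted p from 0.00174 to 0.740).

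A pair of neighbouring genes on the X chromosome rose together. CG14204 (X from 19583617 to 19587057) was at 4.18, 2.86 and 0.966 CPM without and 29.9 and 20.9 CPM with induction, a 10.3-fold rise (log2 fold change 3.36 ± 0.56, edgeR adjusted p = 0.00717). CG14219, which lies 290 bases from its end on the other strand (X from 19587348 to 19590170), was at 41.0, 32.5 and 43.0 CPM without and 123 and 357 CPM with induction (log2 fold change 2.66 ± 0.56, edgeR adjusted p = 0.0347). CG14204 was higher in induced replicate 1 and CG14219 in induced replicate 2.

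A pair of lipase family genes that lie close together moved in opposite directions. CG6283 (3R from 27020238 to 27021378), a gene of the lipase family, rose from 43.9, 28.9 and 25.1 CPM to 296 and 236 CPM, 9.18-fold (log2 fold change 3.20 ± 0.53, edgeR adjusted p = 0.00717). CG17192 (3R from 27017180 to 27018287), on the same strand with the barely detected CG17191 between them, fell from 579, 589 and 620 CPM to 144 and 105 CPM (log2 fold change -2.30 ± 0.42, edgeR adjusted p = 0.0143). In neither gene did the induced libraries overlap the uninduced ones, as for every called gene. Both lie inside the long neuropeptide receptor gene RYa-R on the other strand (3R from 26996980 to 27057935), which had 0 counts in the 5 libraries.

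Other genes in this stretch, looked at after their values were seen, did not pass the test. CG6277 was at 110, 71.8 and 44.0 CPM without and 130 and 118 CPM with induction (log2 fold change 1.11 ± 0.46, edgeR adjusted p = 1). CG6296 was at 831, 753 and 800 CPM without and 324 and 563 CPM with induction (log2 fold change -0.89 ± 0.44, adjusted p = 1). CG6295 was at 1535, 1918 and 2506 CPM without and at 3468 and 1585 CPM with induction (log2 fold change 0.35 ± 0.55, adjusted p = 1). CG17191, CG6271 and CG31077 had log2 fold changes of 0.87, 0.40 and -0.38. Across the 8 measured genes inside RYa-R the log2 fold changes ran from -2.30 (CG17192) to 3.20 (CG6283). Of 13 tested gut lipases 1 rose and 1 fell, against 0.291% of all genes called, and the median log2 fold change was 0.40.

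Several enzyme genes rose with a wide gap between the induced libraries. GstD9 (3R from 12366163 to 12367564) and GstD8 (3R from 12380008 to 12380815), glutathione transferases that lie 12443 bases apart, were the called members of a list of 30 tested. GstD9 was at 12.1, 11.1 and 25.1 CPM without and 28.4 and 101 CPM with induction (log2 fold change 1.72 ± 0.34, edgeR adjusted p = 0.0247). GstD8 was at 5.85, 3.22 and 9.18 CPM without and 15.1 and 56.9 CPM with induction (log2 fold change 2.53 ± 0.51, edgeR adjusted p = 0.0248). In both, induced replicate 1 lay above the highest uninduced library and induced replicate 2 over 3-fold higher still. Of the 30 glutathione transferase genes 24 had a positive and 6 a negative log2 fold change, with a median of 0.40, against 4988 positive of all 9270 genes. Of the 30, 7 had an unadjusted p under 0.05 and 2 were called, against 4.01% and 0.291% of all genes.

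Cyp28d1 (2L from 5210460 to 5212445) was the only called gene of 67 tested cytochrome P450 genes, a family of oxidases whose median log2 fold change was 0.05. It was at 200, 124 and 159 CPM without and 347 and 754 CPM with induction, a 3.71-fold rise (log2 fold change 1.89 ± 0.33, edgeR adjusted p = 0.00884). Cth (2R from 18627918 to 18629395), also known as Eip55E, encodes the cystathionine gamma-lyase that makes cysteine. It rose from 92.4, 77.5 and 101 CPM to 173 and 367 CPM (log2 fold change 1.56 ± 0.33, edgeR adjusted p = 0.0351). Both genes were more than 2 times as high in induced replicate 2 as in induced replicate 1.

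MsrA (3L from 15511052 to 15513202), a methionine sulphoxide reductase that repairs oxidised methionine, had equal levels in the induced libraries. It was at 57.7, 81.1 and 78.3 CPM without and 200.3 and 200.3 CPM with induction (log2 fold change 1.39 ± 0.28, edgeR adjusted p = 0.0247). CG11878 (3R from 25273837 to 25275237) was at 182, 85.8 and 91.8 CPM without and 233 and 744 CPM with induction (log2 fold change 2.05 ± 0.45, adjusted p = 0.0398). CG3301 (3R from 21274243 to 21276249) was at 61.9, 42.2 and 76.8 CPM without and 102 and 142 CPM with induction (log2 fold change 1.07 ± 0.24, adjusted p = 0.0654), the smallest called change.

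Of the 13 genes that rose, 9 were higher in induced replicate 2 than in induced replicate 1 (MsrA by a negligible margin), as were 5187 of all 9270 genes tested, and 6 of the 9 by over 2-fold (GstD8, GstD9, CG11878, CG14219, Cyp28d1 and Cth). Without induced replicate 2 these 6 genes kept their sign, with smaller log2 fold changes than in the full fit. The values were 0.95 for CG11878, 1.15 for Cth, 1.22 for Cyp28d1, 1.27 for GstD9, 1.55 for GstD8 and 1.59 for CG14219. CG6283, CG14204, tobi and rha were slightly lower in induced replicate 2. Of the 14 genes that fell, 10 were lower in induced replicate 2.

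**Figure D2:**
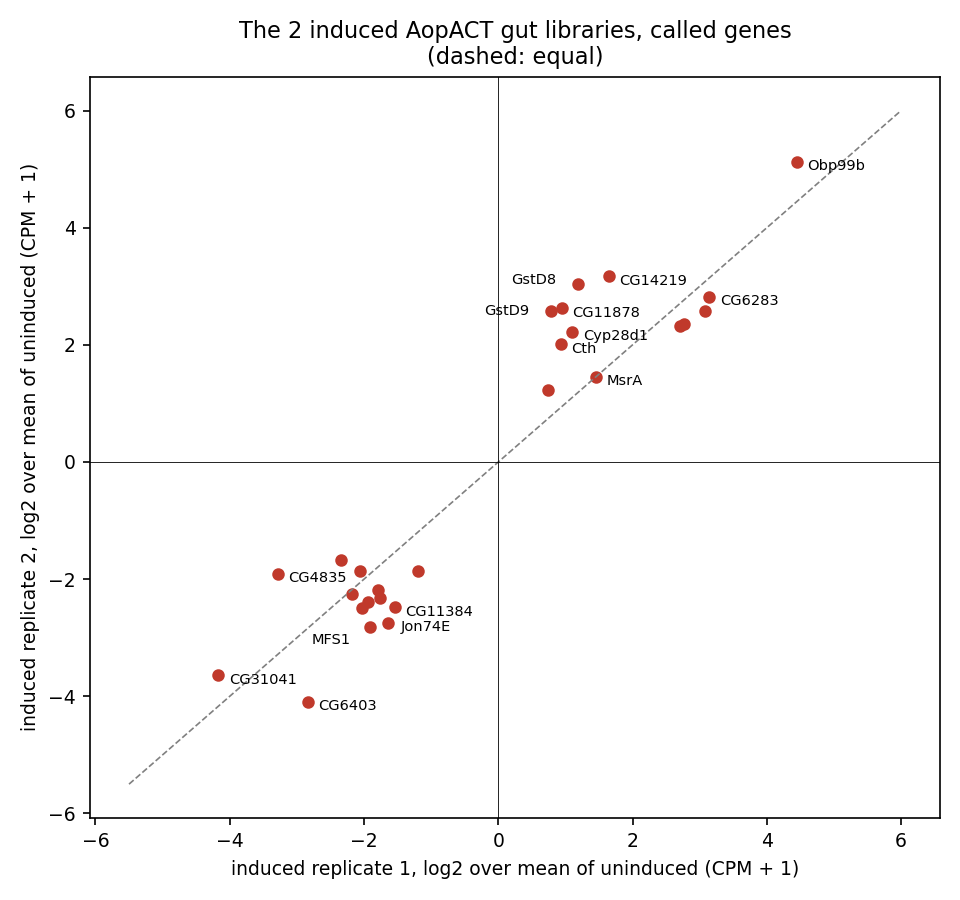
Each point is 1 of the 27 called genes, with log2 of its CPM plus 1 over the mean of the uninduced libraries in induced replicate 1 (horizontal) and in induced replicate 2 (vertical), where the dashed line marks equal values and points close to it are mostly not labelled. GstD8, GstD9, CG11878, CG14219, Cyp28d1 and Cth lie above the line, and Obp99b is the highest in both libraries.

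The most abundant called genes that fell were the digestive enzyme genes CG12374 and Jon74E. CG12374 (2R from 12762113 to 12763825), a carboxypeptidase gene, was at 50611, 32171 and 38777 CPM in the uninduced libraries and 10598 and 7696 CPM in the induced libraries. It fell 4.23-fold (log2 fold change -2.08 ± 0.40, edgeR adjusted p = 0.0192), and was the only called gene of 9 tested carboxypeptidases, whose median log2 fold change was -0.00. The serine protease gene Jon74E (3L from 17548077 to 17549127) was at 2375, 2605 and 2618 CPM without and 808 and 375 CPM with induction (log2 fold change -2.03 ± 0.44, edgeR adjusted p = 0.0351). It was the only called gene of 30 tested serine proteases, of which 20 had a negative log2 fold change (median -0.24) and 5 an unadjusted p under 0.05, against 0.291% called and 4.01% under 0.05 over all genes.

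Other proteases were lower in both induced libraries without passing the test. The trypsin gene epsilonTry was at 3798, 4336 and 4371 CPM without and 1568 and 544 CPM with induction (log2 fold change -1.95 ± 0.56, edgeR adjusted p = 0.329). Jon65Aiii was at 26971, 22844 and 32545 CPM without and 16519 and 7257 CPM with induction (log2 fold change -1.13 ± 0.43, adjusted p = 0.823). As one sum, the 30 serine proteases held 110225, 93695 and 134381 CPM in the uninduced and 90715 and 43451 CPM in the induced libraries. Only induced replicate 2 was far below the uninduced range. The 10 carboxypeptidases held 56633, 38139 and 46007 CPM in the uninduced and 17057 and 11801 CPM in the induced libraries. Without CG12374 the other 9 held 6022, 5968 and 7230 CPM in the uninduced and 6459 and 4106 CPM in the induced libraries, so that induced replicate 1 lay within the uninduced range.

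Of 7 tested lysozyme genes, whose products break down bacterial cell walls, 1 fell. LysB (3L from 1207371 to 1207981) fell from 489, 352 and 442 CPM to 93.8 and 89.1 CPM (log2 fold change -2.16 ± 0.49, edgeR adjusted p = 0.0581). LysE was at 330, 270 and 465 CPM without and 74.7 and 95.5 CPM with induction and lay just outside the threshold (log2 fold change -2.04 ± 0.50, adjusted p = 0.113). LysD, the most abundant member, was at 5337, 4376 and 7126 CPM without and 1438 and 1602 CPM with induction (log2 fold change -1.95 ± 0.58, adjusted p = 0.361). The median of the 7 tested lysozymes was -2.04 and 6 of 7 had an unadjusted p under 0.05, against 4.01% of all genes, LysP being the exception at 0.34. LysB, LysC, LysD and LysE are close copies of one another, and reads that fit several of them make their separate values uncertain.

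Membrane transporters were also among the genes that fell. SLC5A11 (2L from 8200465 to 8205132), a sodium-coupled solute transporter, fell from 168, 159 and 222 CPM to 53.4 and 36.0 CPM (log2 fold change -2.02 ± 0.39, edgeR adjusted p = 0.0192). The antisense gene asRNA:CR44119 (2L from 8201557 to 8205298) overlaps it by 3576 bases and fell alike (log2 fold change -2.01 ± 0.38, adjusted p = 0.0157). Its counts were between 41.6% and 46.4% of those of SLC5A11 in all 5 libraries, and since the use of strand in counting is not given, the 2 genes cannot be told apart.

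MFS1 (2R from 22829644 to 22831877), of the major facilitator superfamily, fell from 48.1, 66.1 and 40.1 CPM to 13.0 and 6.43 CPM (log2 fold change -2.40 ± 0.44, edgeR adjusted p = 0.0156). Mrp5 (3R from 19865417 to 19875678), an ABC transporter gene, fell from 585, 808 and 938 CPM to 338 and 213 CPM (log2 fold change -1.47 ± 0.32, edgeR adjusted p = 0.0371). These were the called genes of 24 tested MFS and ABC transporters, whose median was 0.07.

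CG31041 (3R from 29590070 to 29590906) had the largest fall among called genes, from 61.9, 31.1 and 158 CPM to 3.70 and 5.79 CPM (log2 fold change -4.02 ± 0.83, edgeR adjusted p = 0.0283). CG6403 (3R from 26735417 to 26736307) fell from 31.4, 19.3 and 46.9 CPM to 3.70 and 0.965 CPM (log2 fold change -3.68 ± 0.59, adjusted p = 0.00717), and CG4835 (3L from 5479790 to 5483663) from 34.7, 55.7 and 62.3 CPM to 4.32 and 12.9 CPM (log2 fold change -2.65 ± 0.45, adjusted p = 0.00717). CG15043 (X from 18493193 to 18494168), the most abundant of these, fell from 1675, 1015 and 1788 CPM to 357 and 412 CPM (log2 fold change -2.01 ± 0.42, adjusted p = 0.0296). In these 4 genes, as in all 27 called, the induced libraries did not overlap the uninduced ones, a separation that 15.5% of all genes tested showed. CG11384 (X from 1173877 to 1176035) went from 8.78, 6.07 and 9.66 CPM to 2.16 and 0.643 CPM (log2 fold change -2.53 ± 0.53, adjusted p = 0.0296). CG10680 (2L from 19964136 to 19965702), just inside the threshold, went from 15.1, 15.0 and 19.8 CPM to 2.47 and 4.50 CPM (log2 fold change -2.42 ± 0.57, adjusted p = 0.0936).

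**Figure D3:**
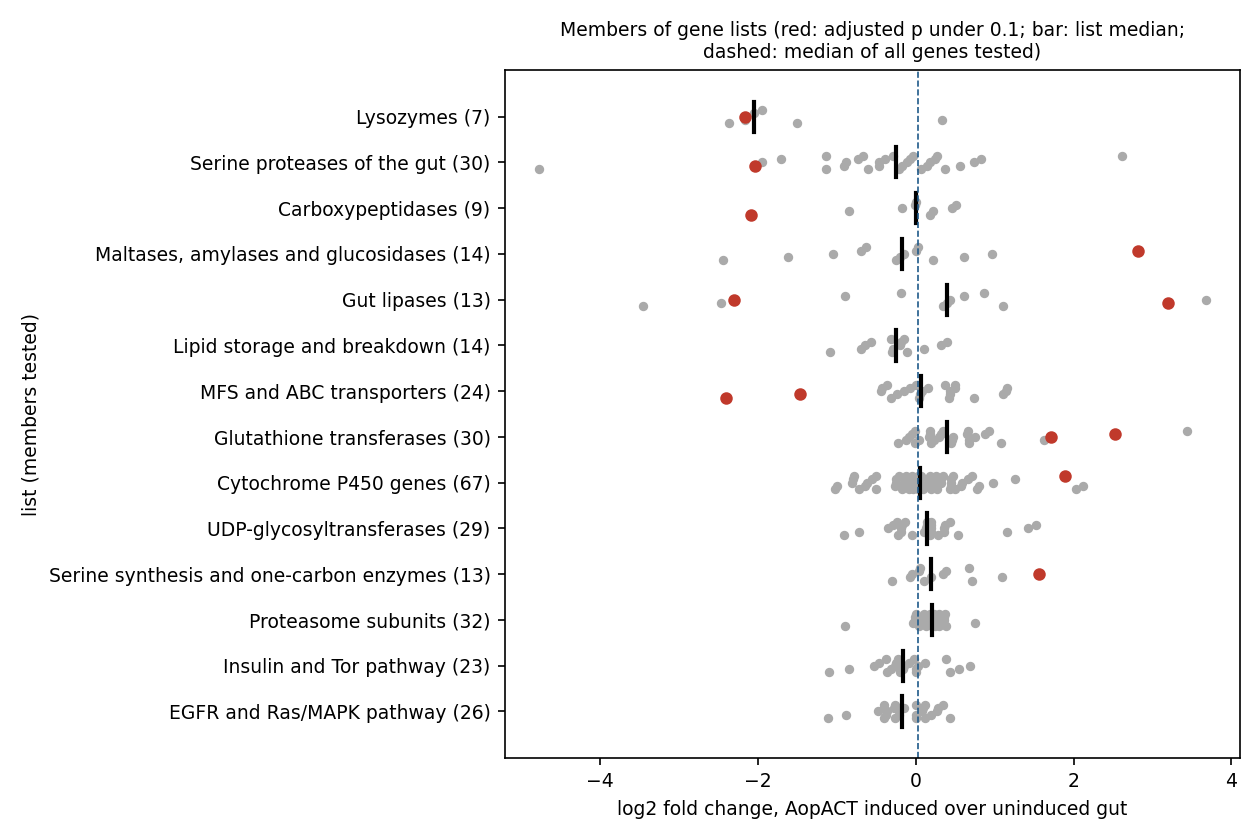
Log2 fold change of every tested member of 14 gene lists with AopACT in the gut, 1 point per gene, red where the adjusted p was under 0.1, with the list median as a black bar and the median of all genes tested as a dashed line. The lysozyme median of -2.04 lies apart from the others, and most lists hold 1 or 2 called genes among many near 0.

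Of the genes that the study examined by qRT-PCR, tobi alone passed with AopACT in the gut. The study used aay, Thor, PGRP-SC2 and Ilp6 to test how AopACT and Foxo act together, and measured Ilp6 in the fat body. For these genes the present comparison is therefore another one. Adh, alcohol dehydrogenase, was at 536, 530 and 867 CPM in the uninduced and 1043 and 1077 CPM in the induced libraries, higher in both (log2 fold change 0.64 ± 0.33, edgeR adjusted p = 1). Thor, the translational repressor 4E-BP, was at 1370, 992 and 1429 CPM without and 767 and 1320 CPM with induction (log2 fold change -0.22 ± 0.31, adjusted p = 1). The induced values of Thor overlapped the uninduced ones, as did those of aay, PGRP-SC2 and Ilp6, with log2 fold changes of 0.04, 0.22 and -0.08. Ilp6 was barely detected, between 0.418 and 1.79 CPM in the uninduced and at 0.617 and 1.29 CPM in the induced libraries.

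The following lists of growth and energy pathways held no called gene. With 0.291% of all genes called, a lack of calls in lists of this size tells little. None of the 23 tested insulin and Tor genes was called (median -0.16), nor any of 26 EGFR and Ras/MAPK genes (median -0.18) or 77 cytosolic ribosomal proteins (median -0.04). The same held for 63 nuclear-encoded respiratory chain genes (median -0.07) and 32 proteasome subunits (median 0.20). Of the proteasome subunits 28 had a positive log2 fold change, against 4988 of all 9270 genes. Of 14 lipid storage and breakdown genes 3 had a positive log2 fold change. Among them brummer (bmm), the triglyceride lipase of lipid droplets, was at 302, 347 and 581 CPM without and 181 and 200 CPM with induction (log2 fold change -1.09 ± 0.28, edgeR adjusted p = 0.143). The droplet protein gene Lsd-2 was at 1081, 1114 and 1244 CPM without and 754 and 646 CPM with induction (log2 fold change -0.64 ± 0.29, adjusted p = 1). Both were lower in every induced library and neither passed. The fat body markers, all 4 of those tested, had negative log2 fold changes (median -1.11). The 7 measured ones had summed levels of 745, 1246 and 873 CPM in the uninduced and 540 and 456 CPM in the induced libraries, and their part in the values of bmm and Lsd-2 was not tested. Marker lists of stem cells, enteroendocrine cells, copper cells, muscle and Malpighian tubules held no called gene, where 0.291% of all genes were called. The 7 tubule markers had a median log2 fold change of 1.08, 6 of them positive, and summed levels of 188, 152 and 202 CPM in the uninduced and 290 and 186 CPM in the induced libraries, and their part in the results was not tested.

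The responses of the same 27 genes in other genotypes came from other induced and uninduced libraries, which shared with the choice of the 27 the estimate of the spread and the block terms. With Foxo+AopACT (3 uninduced and 2 induced libraries), 18 of 27 were called, against 2.13% of all genes, and 18 of these 18 in the direction seen with AopACT alone. With AopACT+PntP1, 8 of 27 were called (0.787% of all genes), and with all 3 transgenes 14 of 27 (1.64% of all genes), each in the same direction. With Foxo alone 8 of 27 were called (0.507% of all genes), 7 of them in the same direction, CG6403 being the exception. With PntP1 alone 15 of 27 were called (3.04% of all genes), 9 in the same and 6 in the opposite direction, and with Foxo+PntP1 13 of 27 (2.79% of all genes), 8 in the same and 5 in the opposite direction.

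MFS1 and CG12374 fell in all 7 genotypes. MFS1 was between 29.3 and 66.1 CPM in uninduced and between 1.29 and 14.9 CPM in induced libraries, with log2 fold changes from -3.94 (all 3 transgenes) to -2.08 (Foxo). CG12374 had log2 fold changes from -4.31 (Foxo+AopACT) to -2.01 (AopACT+PntP1). For MFS1 and CG12374 the transgenes and the RU486 that all induced flies received cannot be told apart. LysB, CG17192 and GstD8 were called in 6 of 7 genotypes in the direction seen with AopACT. The exceptions were Foxo for LysB (log2 fold change -0.64 ± 0.40) and GstD8 (0.13 ± 0.51), and AopACT+PntP1 for CG17192 (0.07 ± 0.38). The part of RU486 in the values of LysB, CG17192 and GstD8 was not tested. CG14204, CG6283, Cth and CG31041 were called in another genotype with AopACT and in none of the 3 without it. In the test of the difference from Foxo, CG14204 alone of these passed, and CG31041 had a log2 fold change of -2.67 ± 0.68 with Foxo (edgeR adjusted p = 0.102). Obp99b, CG11878, CG11384 and CG10680 were called in no other genotype. Obp99b was at 0 CPM in the 3 uninduced and at 2.96 and 4.39 CPM in the 2 induced AopACT+PntP1 libraries (adjusted p = 0.141).

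**Figure D4:**
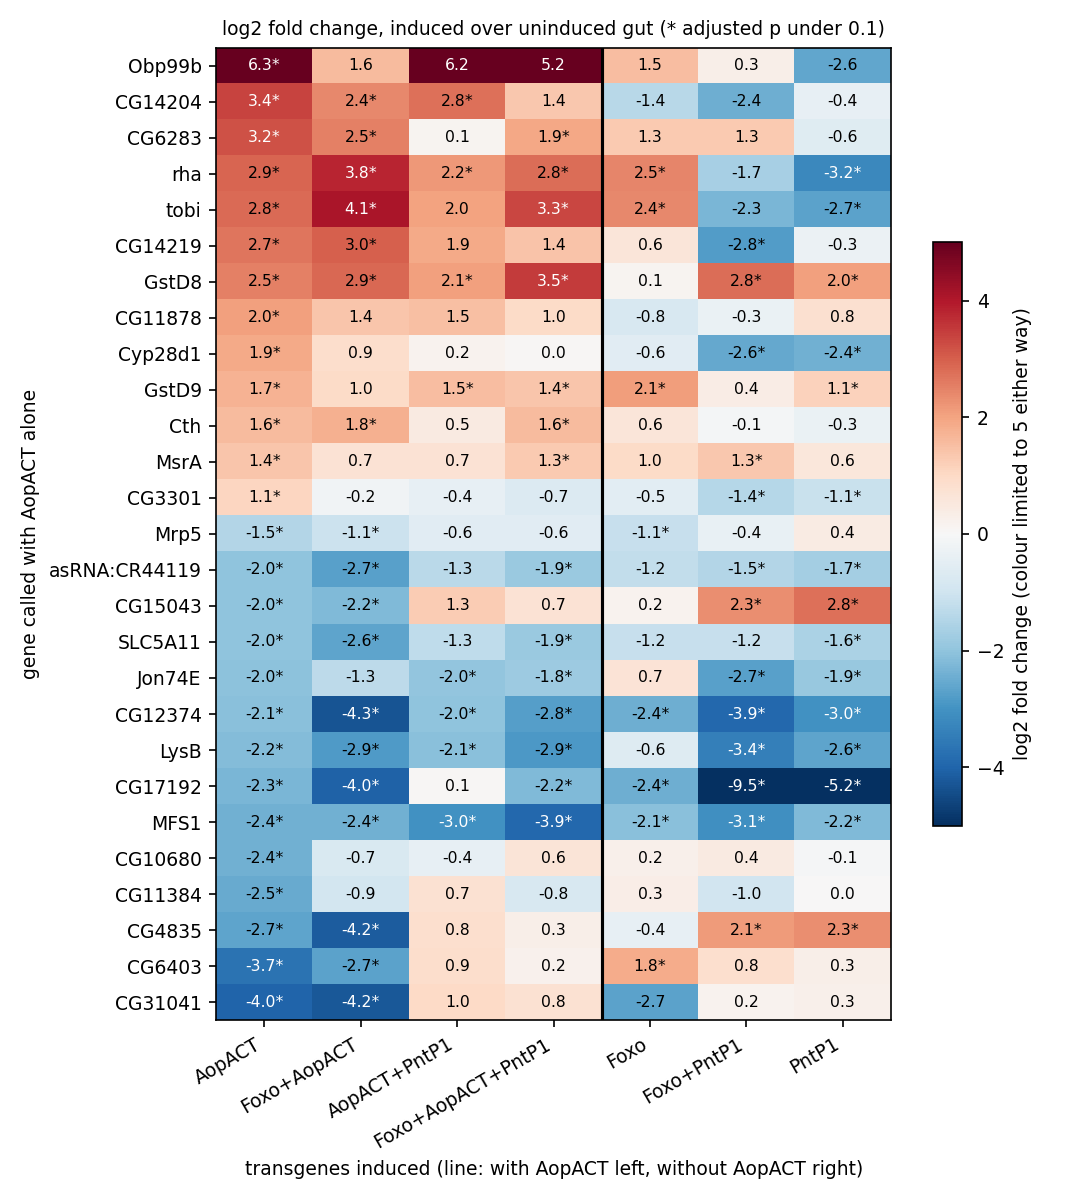
Log2 fold change, induced over uninduced gut, of the 27 called genes (rows) in the 7 genotypes (columns), 4 with AopACT left of the line and 3 without it on the right, with asterisks at an adjusted p under 0.1. MFS1 and CG12374 are blue in every column, while CG4835, CG15043 and tobi have opposite signs with AopACT and with PntP1.

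The responses to AopACT and Foxo, which the study set side by side, were compared in the same fit, and 17 of 9270 genes (0.183%) differed, 7 higher and 10 lower with AopACT (10 genes without Foxo induced replicate 3). The lowest p belonged to CG11899, the phosphoserine aminotransferase gene of serine synthesis. It was between 20.6 and 44.0 CPM in uninduced and between 217 and 228 CPM in induced Foxo guts (n = 3), and was at 25.1, 21.4 and 18.8 CPM without and 19.1 and 20.6 CPM with AopACT (difference in log2 fold change -3.00 ± 0.34, edgeR adjusted p = 3.6e-05). The gene aay, a phosphoserine phosphatase of the same pathway, rose by 3.44 ± 0.32 with Foxo and had 0.04 ± 0.33 with AopACT (difference -3.40 ± 0.46, adjusted p = 2.3e-04). Both serine synthesis genes were thus higher with Foxo and within the uninduced range with AopACT, or close to it.

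The maltases Mal-A7 and Mal-A8 differed as well. Mal-A7 was between 2154 and 3402 CPM in induced Foxo guts, against 44.1 and 86.7 CPM in induced AopACT guts (difference -4.57 ± 0.69, edgeR adjusted p = 0.00118), and the difference for Mal-A8 was -2.96 ± 0.49 (adjusted p = 0.00448). The cytochrome P450 gene Cyp4e1 differed by -2.27 ± 0.38 (adjusted p = 0.00461). Of the 27 called genes, whose choice used the same AopACT libraries, 6 differed from Foxo, a count given as a description. CG6403 fell with AopACT and rose with Foxo (log2 fold change 1.84 ± 0.41 there, difference -5.52 ± 0.71, adjusted p = 1.6e-04), and CG14204, Cyp28d1, Jon74E, CG3301 and CG11878 had a response of the opposite sign with Foxo that did not pass on its own. For tobi the difference was 0.42 ± 0.80 on the log2 scale (adjusted p = 1) and for rha 0.44 ± 0.72.

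The responses to AopACT and to the activator PntP1 differed for 141 genes (1.52%), 78 higher and 63 lower with AopACT. Leaving out single libraries brought this to between 52 and 91 for 7 of them, namely AopACT uninduced replicates 2 (75) and 3 (88) and induced replicates 1 (89) and 2 (66), and PntP1 uninduced replicate 2 (91) and induced replicates 1 (82) and 2 (52). Among the 27 called genes, 15 differed. Their choice used the same AopACT libraries, and the count is given as a description. Cyp28d1 rose with AopACT and fell with PntP1, from between 119 and 195 CPM to 24.5 and 42.3 CPM (difference 4.30 ± 0.50, edgeR adjusted p = 9.7e-06). CG4835 fell with AopACT and was raised by PntP1 from between 29.0 and 39.9 CPM to 161 and 187 CPM (difference -4.99 ± 0.59, adjusted p = 1.3e-05). CG15043 moved likewise, with 879 to 1118 CPM in uninduced and 6614 and 7164 CPM in induced PntP1 guts (difference -4.78 ± 0.58, adjusted p = 1.7e-05).

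With both factors induced, CG15043 was at 2501 and 4376 CPM and CG4835 at 40.0 and 75.0 CPM in AopACT+PntP1 guts, between the levels with each factor alone, and neither response passed there. The gene tobi fell with PntP1, from between 78.2 and 398 CPM to 21.9 and 48.6 CPM, and its responses differed by 5.51 ± 0.93 (edgeR adjusted p = 0.00132), as did those of rha (6.11 ± 0.95, adjusted p = 6.0e-04). CG17192 fell with both, and its log2 fold change was higher by 2.90 ± 0.57 with AopACT (adjusted p = 0.00664).

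The 3 lowest p values of this difference belonged to genes that rose with PntP1 and did not pass the test with AopACT. CG7567 was between 2779 and 3293 CPM in induced PntP1 guts and at 8.03 and 4.18 CPM in induced AopACT guts, where the uninduced libraries held 19.7, 20.4 and 16.4 CPM (difference -7.81 ± 0.90, edgeR adjusted p = 9.7e-06). Balat differed by -8.93 ± 1.02 and the antisense gene asRNA:CR43469 over the same stretch by -8.96 ± 1.01 (adjusted p = 9.7e-06 for both). These 2 genes had equal counts in 27 of 36 gut libraries, so they cannot be told apart, and Balat had 4, 6 and 11 counts in the uninduced and 2 and 0 in the induced AopACT libraries.

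**Figure D5:**
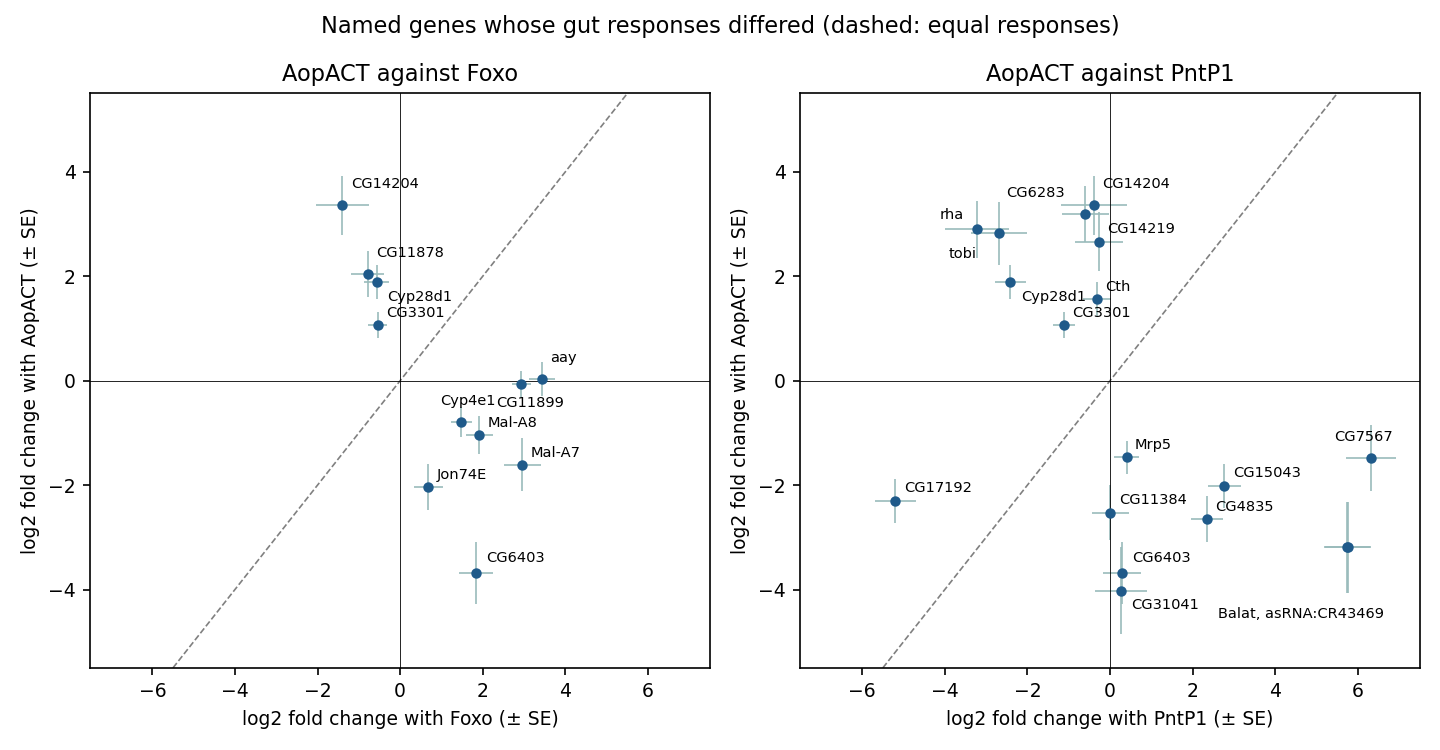
Log2 fold change with AopACT (vertical) against that with Foxo (left, horizontal) or PntP1 (right, horizontal), each with its SE, for named genes whose difference in response had an adjusted p under 0.1, where the dashed line marks equal responses. Cyp28d1, tobi and rha lie in the corner that rose with AopACT and fell with PntP1, and CG4835, CG15043 and CG7567 lie opposite.

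Against the mean response of the 3 genotypes without AopACT (Foxo, PntP1 and Foxo+PntP1, 2 of which carry PntP1), a contrast in which a response to RU486 shared by all genotypes would cancel, 115 genes (1.24%) differed, 64 higher and 51 lower with AopACT. Leaving out an AopACT library gave 76 (uninduced replicate 2), 69 (uninduced replicate 3), 68 (induced replicate 1) or 76 (induced replicate 2). Of the 27 called genes, whose choice used the same AopACT libraries, 16 differed, a count given as a description. They included tobi (difference 3.67 ± 0.71, edgeR adjusted p = 0.00558), rha, CG14204, CG6283, Cyp28d1 and Cth, which rose, and CG31041, CG6403 and CG4835, which fell. The 11 that did not pass included MFS1 (0.06 ± 0.48, adjusted p = 1), CG12374 (1.05 ± 0.44, adjusted p = 0.465), LysB (0.08 ± 0.53, adjusted p = 1), GstD8 and GstD9. Obp99b also missed the threshold, with a difference of 6.57 ± 2.1 (adjusted p = 0.206). Jon99Ci, a serine protease gene, had one of the lowest p values of this contrast without a call for AopACT itself. It was at 245, 213 and 474 CPM without and 463 and 634 CPM with AopACT, and the difference was 4.81 ± 0.52 (adjusted p = 4.6e-06). Its log2 fold changes in the genotypes without AopACT were -4.55 (PntP1), -5.95 (Foxo+PntP1) and -1.44 (Foxo), so most of the difference lay there. The lipase family gene CG6295, named above, differed by 5.11 ± 0.67 (adjusted p = 9.4e-05). Its log2 fold changes were 0.35 with AopACT, -1.67 with Foxo, -4.61 with PntP1 and -7.99 with Foxo+PntP1. Most of its difference thus also lay in the genotypes without AopACT.

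In the fat body of the same genotype (2 uninduced and 2 induced libraries, 40 of 9734 genes called, 0.411%), 20 of the 27 genes were tested and 9 of them had the sign seen in the gut. The 6 that were called were among these. Obp99b was at 1.6 and 1.6 CPM in uninduced and 997 and 2252 CPM in induced fat bodies (edgeR adjusted p = 4.8e-05). Cth was at 49.3 and 37.8 CPM without and 357 and 272 CPM with induction (log2 fold change 2.60 ± 0.34, adjusted p = 6.2e-04). The others were tobi (5.30 ± 1.01), rha (4.89 ± 0.83), Cyp28d1 (3.03 ± 0.64) and CG10680 (-2.50 ± 0.53). CG10680 was at 1327 and 1995 CPM in uninduced and 410 and 200 CPM in induced fat bodies, far above its gut levels. The fat body marker apolpp was at 9972 and 15333 CPM in uninduced fat bodies and at 87.0, 96.8 and 114 CPM in uninduced guts. The part of fat body tissue in the gut values of Obp99b and CG10680 was not tested. MsrA, GstD9, CG11878, CG3301 and CG14204, which rose in the gut, had negative log2 fold changes in the fat body without a call, from -0.89 to -0.01. No test between tissues was made.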

How the data were processed

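The deposited values are raw counts per gene and library, not normalised, for 10366 genes in the gut. The authors collapsed PCR copies by molecular barcode, aligned reads to fly genome release 6 and counted them per gene (HISAT2, SAMtools and featureCounts in the submitters' processing notes). The strand setting of the counting was not stated. The authors' variance-stabilised tables were not used, and 3 labelled fat body libraries were not analysed here.

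Groups came from the sample labels. All 36 gut libraries (total counts 1598120 to 6145550) entered 1 fit in edgeR 4.0.16 (R 4.3.3), with TMM scaling, filterByExpr (minimum count 10, 9270 genes left), 14 groups, the block (A, C or D) and a quasi-likelihood test. The biological coefficient of variation was 0.313, with 20 residual degrees of freedom. Differences between genotypes were contrasts of this fit. Genes with a Benjamini-Hochberg adjusted p below 0.1 over all genes tested were called, the rate the study used. The fat body was fitted apart in the same way. Coordinates are those of BDGP6 in Ensembl. Replicates of the AopACT guts differed beyond counting noise. The chi-square per degree of freedom was 11.4 to 17.0 between uninduced libraries and 42.3 between the induced ones.

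Alternatives were RLE scaling, DESeq2 1.42.0, voom with quality weights (limma 3.58.1), no filter, no replicate block, AopACT libraries alone and an adjusted p below 0.05. Others left out libraries 02 and 05 (labelled with another condition in gut than in fat body) or those with over 20% mitochondrial counts. Libraries of the genotypes that a comparison used were also left out in turn, and those of other genotypes were not. On simulated data for the AopACT gut comparison (8998 genes), 89 of 100 genes changed by 2 on the log2 scale, 25 of 100 changed by 1 and 8 of 8798 unchanged genes were called. The changed genes were drawn from the more abundant ones. Each gene had the same spread in all simulated libraries and no block effect, unlike the wider gap between the real induced AopACT libraries. These rates may therefore not hold for genes of low level or for the real induced pair.

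Named are aop, foxo, pnt, the qRT-PCR genes, every called gene, the 6 lowest p of each difference test and up to 4 members of lowest p of each of 40 gene lists. LysP, CG6296, the other genes inside RYa-R and the eggshell genes were named after their values were seen. Genes and lists were chosen with earlier results of these data known. Promoters were not analysed here.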

Additional observations from a re-analysis of the deposited data

Results flagged for a closer look

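The results below are genes whose response to AopACT in the gut differed from that to Foxo or to PntP1 in a test of the difference itself, with the difference in log2 fold change in each case (edgeR adjusted p under 0.1 over all genes tested).

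Against Foxo, the response was lower with AopACT for CG6403 (-5.52), Mal-A7 (-4.57), aay (-3.40), CG11899 (-3.00), Mal-A8 (-2.96), Jon74E (-2.72) and Cyp4e1 (-2.27). It was higher for CG14204 (4.76), CG11878 (2.83), Cyp28d1 (2.46) and CG3301 (1.61). For aay and CG11899 the AopACT response itself was 0.04 and -0.07.

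Against PntP1, the response was lower with AopACT for asRNA:CR43469 (-8.96), Balat (-8.93), CG7567 (-7.81), CG4835 (-4.99), CG15043 (-4.78), CG31041 (-4.28), CG6403 (-3.97), CG11384 (-2.54) and Mrp5 (-1.87). It was higher for rha (6.11), tobi (5.51), Cyp28d1 (4.30), CG6283 (3.79), CG14204 (3.76), CG14219 (2.93), CG17192 (2.90), CG3301 (2.18) and Cth (1.88). Of these genes Cyp28d1, CG4835, CG15043, CG3301, tobi and rha were called in opposite directions in both genotypes.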

How the results depend on the processing

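The 27 calls with AopACT became 56 with DESeq2 (23 higher, 33 lower, 26 of the 27 among them) and 15 with the AopACT libraries fitted alone with the replicate block, and ranged from 3 to 23 when each library was left out. The 17 differences from Foxo became 47 with DESeq2 and 54 with limma voom (30 higher, 24 lower), and ranged from 10 to 18 with libraries left out, the 141 from PntP1 became 258 and 408 (range 52 to 162), and the 115 from the mean without AopACT became 234 and 217 (range 68 to 144). Without the replicate block 27 genes were called with AopACT, 22 of them the same, and tobi, rha, GstD9, CG3301 and CG10680 lost their call. Deviations of libraries of the same block correlated on average by 0.0283, and those of other blocks by -0.0143. All other settings left the counts within 1.5 times. None of the 27 genes called with AopACT changed sign in any alternative run, while 140 of 141 differences from PntP1 and 114 of 115 from the mean kept their sign without AopACT induced replicate 2. CG6283 and CG14204 were called in 14 of 14. With Foxo+PntP1 a single uninduced library exists, which could not be left out. Where an alternative leaves 1 induced library, it is assumed to vary like the other groups. With 2 induced libraries, changes under about 2-fold are mostly beyond detection here. The causes of these shifts were not tested.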
